A study of Canis lupus familiaris with 10 samples.

Results

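The plasma cell program genes examined in canine cutaneous histiocytoma (CCH), a skin tumor of Langerhans cell origin that usually regresses on its own, were JCHAIN, MZB1, XBP1, PRDM1, POU2AF1, SDC1, DERL3 and IRF4. They were chosen by symbol, and 8 of 8 were present among the 23266 genes of the table. Expression was measured by QuantSeq 3′, a method that reads 1 short fragment near the polyadenylated end of each transcript, in formalin-fixed, paraffin-embedded (FFPE) tumors from privately owned dogs of several breeds. The early group held 5 tumors of histological group 1, from dogs aged 0.5 to 5.0 years where an age was given (4 of 5). The late group held 5 tumors of histological group 3, labeled as lymphocyte enriched, from dogs aged 1.5 to 9.0 years. The labels name no treatment, every library came from a different tumor, and tissue beside the tumor had been removed before RNA isolation.

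Plasma cells are B cells at the end of their development, and they devote most of their protein synthesis to antibodies. The transcription factor PRDM1 (Blimp-1) switches off the B-cell program, IRF4 is needed at high levels for the same step, XBP1 enlarges the secretory apparatus, and POU2AF1 (OBF-1) is a B-lineage coactivator of the octamer factors. JCHAIN joins antibody units into polymers, MZB1 and DERL3 work in the endoplasmic reticulum, where antibody chains are folded or discarded, and SDC1 (CD138) is the surface proteoglycan by which pathologists recognize plasma cells. Several of these genes are also used by other cells of inflamed skin, among them SDC1 in keratinocytes, PRDM1 in activated T cells and macrophages, IRF4 in dendritic and T cells, and XBP1 in many secretory cells.

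The libraries held between 2973125 and 4439709 reads assigned to genes. A count of 0 allows up to 3 reads, equal to 2.36 to 3.22 after normalization, a limit that covers counting error only. The share of RNA fragments above the DV200 length limit was 64.5 to 71.2% in early and 71.2 to 75.8% in late tumors. The extraction batches and index sets each held samples of 1 stage, so that batch cannot be told apart from stage, and RNA quality differed with stage as well. The numbers 1 to 5 of the libraries of a stage are names and carry no order. Late library 3 stood apart by its B-cell genes, as described with JCHAIN and POU2AF1. In bulk tissue, fewer cells of a type and less RNA per cell cannot be told apart. No symbol in the table named a gene of the antibody heavy or light chains, and such genes under other symbols were not analysed here.

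PRDM1 and POU2AF1 had the highest log2 fold changes between late and early CCH, JCHAIN ranged widely within both stages, XBP1, IRF4 and SDC1 had stage means that differed by less than their SD, and MZB1 and DERL3 were close to the detection limit. None of the 6 members tested was called, where a call required a Benjamini-Yekutieli (BY) adjusted p of at most 0.05 in limma and a log2 fold change (log2FC, late minus early) of at least 1 in size, against 2.17% of the 12397 genes tested (1.06% higher and 1.11% lower). The 2 members not tested, MZB1 and DERL3, had a normalized read count of at least 10 in fewer than 5 libraries. The count of calls was also 0 in edgeR and in DESeq2, where edgeR called 1.43% of all genes (0.653% higher and 0.774% lower) and DESeq2 6.53% (3.87% higher and 2.66% lower). With Benjamini-Hochberg (BH) adjustment in limma, which called 9.04% of all genes (5.53% higher and 3.52% lower), 1 member passed, PRDM1. At an unadjusted p of at most 0.05, 2 of the 6 were higher in late CCH and 0 lower, against 15.6% of all genes higher and 15.3% lower. In 0 of the 6 did the stages separate without overlap, which occurred in 12.0% of all genes (5.91% higher and 6.05% lower). The median log2FC of the 6 was 0.26, against -0.004 for all genes tested.

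**Figure D1:**
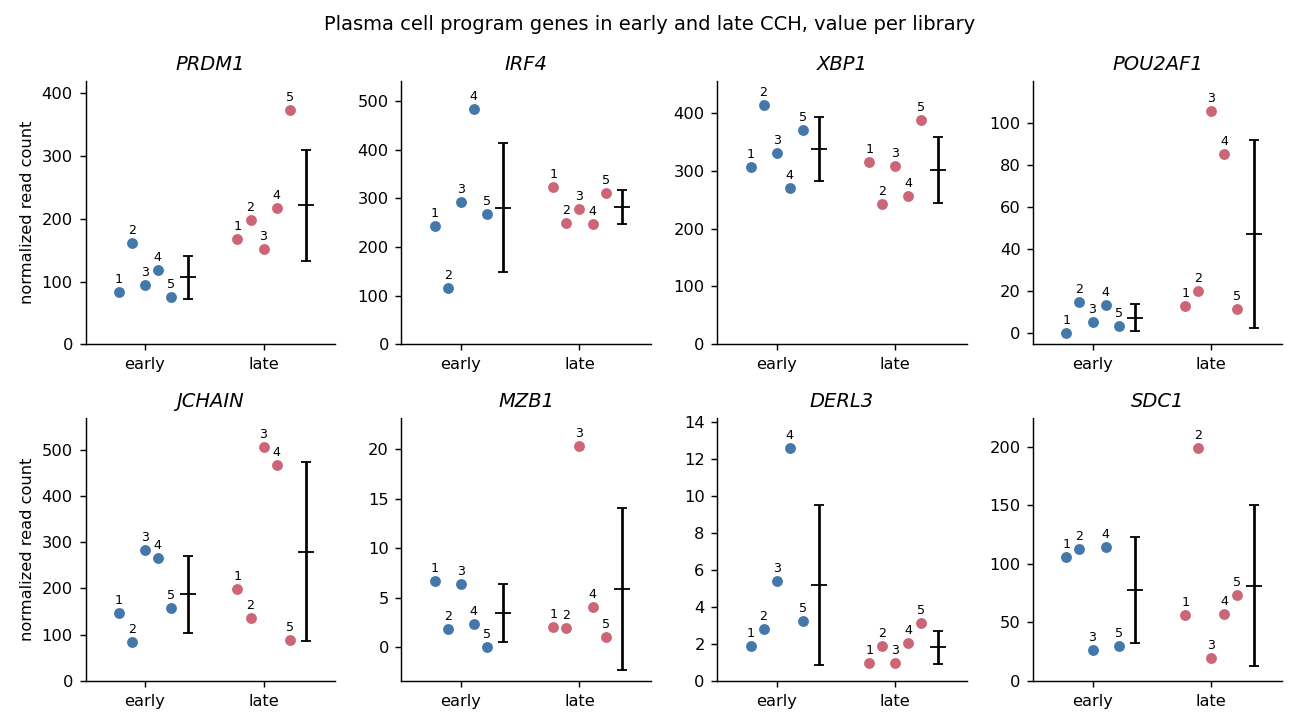
Normalized read count (linear vertical axes, a separate scale for each gene) of the 8 members in the 5 early (blue) and 5 late (red) libraries, numbered 1 to 5, with the mean and SD in black. In PRDM1, 4 of 5 late libraries lie above every early library, and late library 3 is the highest for POU2AF1, JCHAIN and MZB1.

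PRDM1, the repressor that ends B-cell identity, was measured at a normalized read count of 82.8, 161, 94.1, 119 and 75.1 in early libraries 1 to 5 and at 168, 198, 152, 217 and 374 in late libraries 1 to 5. Late values were above every early value in 4 of 5 libraries, and late library 3 fell below early library 2. The early mean was 106 ± 34.7 and the late mean 222 ± 88.6 (SD, n = 5 each). The log2FC was 1.03 (SE 0.27, 95% confidence interval 0.44 to 1.62), a 2.04-fold higher level with an interval of 1.36 to 3.07. The adjusted p in limma was 0.244 by BY and 0.0244 by BH. The log2FC stayed between 0.82, without late library 5, and 1.19, without early library 2, when each library was left out in turn, and the BY-adjusted p of limma then ranged from 0.123 to 0.621. Among the other alternatives the lowest BY-adjusted p was 0.0568, in DESeq2.

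T-cell markers, like PRDM1, had a higher mean in late CCH, the stage labeled as lymphocyte enriched, but their order within the stages differed from that of PRDM1. The summed level of 12 T-cell markers, of which 12 of 12 tested had a positive log2FC with a median of 3.18, was 354 to 2833 in early and 4310 to 6591 in late libraries, with no overlap. Macrophage markers had a median log2FC of 1.01 over the 9 tested of 10, with summed levels of 2663 to 11752 in early and 6269 to 11886 in late libraries, and 1 of the 10 was at 0 in at least 1 early library. Among the early libraries, the highest PRDM1 value was in library 2, which also had the highest macrophage sum. Its T-cell sum was 1035, below those of early libraries 3 and 4. Early library 5, next in macrophage sum at 5776, had the lowest PRDM1 value of all, 75.1. Late library 1 had the highest macrophage sum of all libraries, 11886, at a PRDM1 value of 168. Of the 5 libraries highest in PRDM1, 4 were among the 5 highest in T-cell markers. Early library 3, with the highest early T-cell sum, had a PRDM1 value of 94.1. Late library 1 had a T-cell sum of 6260, above the 5697 of late library 5, but PRDM1 at 168 against 374. Late library 3 was the lowest late library in both. The part of T cells and macrophages in the level of PRDM1 was not tested.

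IRF4, the factor that plasma cells share with activated T cells and dendritic cells, was measured at 244, 115, 293, 483 and 268 in early and at 323, 249, 279, 246 and 311 in late libraries. Every late value lay inside the early range, and the early libraries were more spread out, with the lowest in library 2 and the highest in library 4. The means were 281 ± 132 in early and 282 ± 34.8 in late CCH (SD, n = 5 each). The log2FC was 0.14 (SE 0.29, 95% interval -0.50 to 0.78, limma BH-adjusted p = 0.797), and it was -0.15 without early library 2. The 9 Langerhans and dendritic cell markers summed to 1261 in early library 2 and 3128 in early library 4, over ranges of 1261 to 3381 in early and 1223 to 2333 in late libraries. Of the 5 libraries highest in IRF4, 4 were among the 5 highest in these markers. The exception, late library 5 with IRF4 at 311, had the lowest marker sum of all libraries, 1223. The markers did not move together, with 3 positive and 6 negative log2FC values from -3.80 to 2.38. The relation of IRF4 to these markers was not tested.

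XBP1, which drives the expansion of the secretory apparatus, had the highest stage mean of the members in early and in late CCH. Its values were 307, 413, 331, 271 and 370.4 in early and 315, 243, 308, 257 and 387 in late libraries, and these ranges overlapped over most of their width. In late libraries 1 and 2 IRF4 was slightly above XBP1, and in late libraries 3 and 4 JCHAIN was above it. With means of 338 ± 55.3 and 302 ± 57.1 (SD, n = 5 each), the log2FC was -0.17 (SE 0.17, 95% interval -0.54 to 0.20, limma BH-adjusted p = 0.539). The interval corresponds to a late level between 0.690 and 1.15 times the early level, the narrowest among the members. A read at the 3′ end does not tell the spliced transcript, which encodes the active factor, from the unspliced form, so these values describe the total XBP1 transcript.

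POU2AF1, the B-lineage coactivator, was scarce in early CCH, at 0, 14.9, 5.43, 13.4 and 3.22. In late libraries it stood at 12.9, 19.98, 106, 84.9 and 11.5. Libraries 3 and 4 of the late stage were far above the rest, library 2 was slightly above every early library, and the other 2 late libraries lay within the early range. The values rest on 0, 16, 6, 17 and 3 reads in early and 13, 21, 109, 83 and 11 reads in late libraries. The mean was 7.38 ± 6.48 in early and 47.0 ± 44.8 in late CCH (SD, n = 5 each). This gave a log2FC of 2.48 (SE 0.85, 95% interval 0.63 to 4.33) with a limma adjusted p of 0.669 by BY and 0.0669 by BH. Without late library 3 the log2FC was 2.05, and without early library 1, where no read was found, it was 1.85.

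JCHAIN, the polymerizing chain of secreted antibodies, was measured at 148, 84.7, 282, 265 and 157 in early and at 199, 136, 506, 466 and 88.1 in late libraries. The same late libraries 3 and 4 were above every early library, whereas late library 5 was next to the lowest of all. The mean was 187 ± 83.7 in early and 279 ± 193 in late CCH (SD, n = 5 each), and the log2FC was 0.39 (SE 0.48, 95% interval -0.66 to 1.43, limma BH-adjusted p = 0.630). Several single libraries moved this value, which was 0.09 without late library 3, 0.12 without late library 4, 0.14 without early library 2 and 0.72 without late library 5.

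MZB1, a chaperone of antibody assembly, was near the detection limit, with 7, 2, 7, 3 and 0 reads in early and 2, 2, 21, 4 and 1 reads in late libraries. Late library 3, at a normalized read count of 20.3, was the only library at or above 10. The stage mean of late CCH was 5.87 ± 8.16 (SD, n = 5) with that library and 2.26 without it, beside 3.44 ± 2.93 in early CCH. DERL3, which helps to remove misfolded proteins from the endoplasmic reticulum, had 2, 3, 6, 16 and 3 reads in early and 1, 2, 1, 2 and 3 reads in late libraries. Its highest value was 12.6 in early library 4, and the total was 30 reads in early against 9 in late CCH. Without a filter on low values, limma gave a log2FC of 0.37 (unadjusted p = 0.647) for MZB1 and -0.96 (unadjusted p = 0.127) for DERL3. In the RefSeq table of a more recent dog assembly, MZB1 lies beside PROB1 and DERL3 beside SMARCB1, and counts this low are uncertain where genes lie close together.

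SDC1, the proteoglycan CD138, was measured at 106, 113, 26.2, 114 and 30.1 in early and at 56.7, 199, 19.4, 57.3 and 73.4 in late libraries. Both stages held high and low libraries, and no separation by stage was visible. The mean was 77.8 ± 45.4 in early and 81.1 ± 68.7 in late CCH (SD, n = 5 each). The log2FC was -0.04 (SE 0.59, 95% interval -1.33 to 1.24, limma BH-adjusted p = 0.967), and its sign turned under several alternatives. Late library 3, the highest for JCHAIN, MZB1 and POU2AF1, was the lowest for SDC1.

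Keratinocyte markers followed another order across the libraries than the B-cell genes did. The 15 keratinocyte markers summed to 16190, 4698, 3777, 18422 and 1132 in early and to 1247, 9740, 854, 2271 and 7559 in late libraries. The 5 libraries highest in these markers were the 5 highest in SDC1, and late library 3 was the lowest in both. Of the 14 markers tested, 14 had a negative log2FC, with a median of -0.88, beside 6226 negative values among the 12397 genes tested. By BY 0 were called, against 2.17% of all genes, and by BH 1 was called lower, against 3.52%. The stages did not overlap in 1, lower in late CCH, where 6.05% of all genes were. The part of keratinocytes in the SDC1 level was not tested.

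The B-cell markers followed POU2AF1 and JCHAIN in the libraries at the top. The summed level of the 8 B-cell markers was 653 to 810 in early libraries and 628, 859, 3400 and 1216 in late libraries 1 to 4, with 804 in late library 5. Late library 3 was highest and late library 4 next for these markers, as they were for POU2AF1 and for JCHAIN. MS4A1, which encodes the B-cell surface protein CD20, stood at 576 in late library 3 and 150 in late library 4, and at 18.9 to 33.8 in the other late libraries. Across the remaining libraries JCHAIN did not follow the summed level of these markers, with 282 in early library 3 at a B-cell sum of 724 and 88.1 in late library 5 at 804. Such a sum mostly reflects the abundant markers. It was lowest of all in late library 1, at 628, although the markers tested had a median log2FC of 2.16. Of the 7 B-cell markers tested, 5 had a positive log2FC, beside 6171 of the 12397 genes tested. By BY 0 were called, against 2.17% of all genes, and by BH 3 were called higher, against 5.53%. The stages did not overlap in 3, all higher in late CCH, where 5.91% of all genes were. The part of B cells in the levels of POU2AF1 and JCHAIN was not tested.

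**Figure D2:**
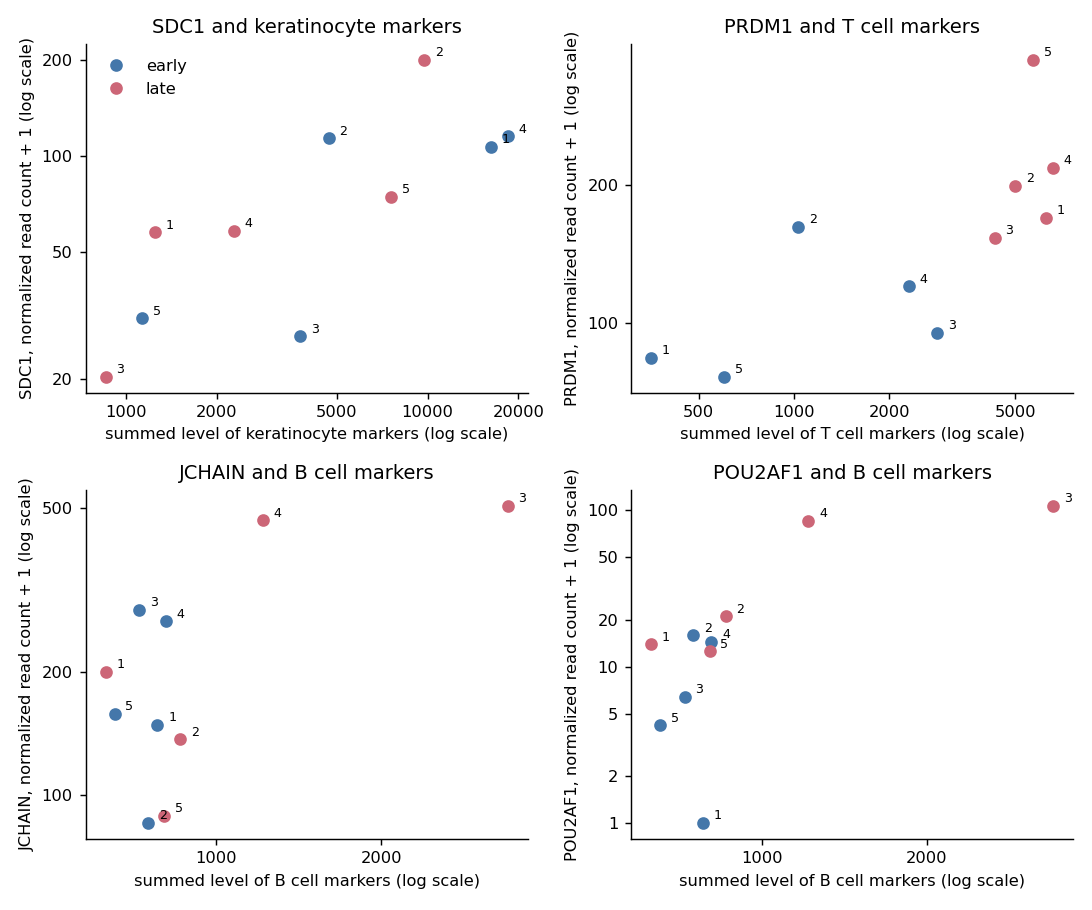
Level of a member (vertical axis, normalized read count + 1, log scale) against the summed level of cell type markers (horizontal axis, normalized read count, log scale) in early (blue) and late (red) libraries, numbered 1 to 5. SDC1 is highest in the 5 libraries that are highest in keratinocyte markers, every late library exceeds every early library in T-cell markers, and late libraries 3 and 4 are the highest for B-cell markers, JCHAIN and POU2AF1.

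Because QuantSeq 3′ counts 1 fragment per transcript, levels of different genes can be set side by side without a correction for length, although capture and annotation of the 3′ end can still differ between genes. In early CCH the mean normalized read counts followed the order XBP1, IRF4, JCHAIN, PRDM1, SDC1, POU2AF1, DERL3 and MZB1. The only neighbors in this order whose ranges did not overlap were SDC1, with a minimum of 26.2, and POU2AF1, with a maximum of 14.9. In late CCH the means of the first 6 had the same order, MZB1 preceded DERL3, and every pair of neighbors overlapped. The place of JCHAIN in the late order rested on single libraries. Its late mean was 222, below PRDM1 at 239, without late library 3, and 327, above XBP1 at 281, without late library 5. Without late library 2 it was 315, above IRF4 at 289.8, and without late library 1 it was 299, level with XBP1. The 8 members together reached 895 to 1280 in early and 1048 to 1391 in late libraries, with means of 1006 ± 165 and 1220 ± 152 (SD, n = 5 each). These ranges overlapped, and the members took different shares of the sum. PRDM1 made up a mean of 10.7% of it in early and 18.3% in late CCH, and XBP1 34.7% and 25.0%. JCHAIN ranged from 7.06% in late library 5 to 36.4% in late library 3.

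**Figure D3:**
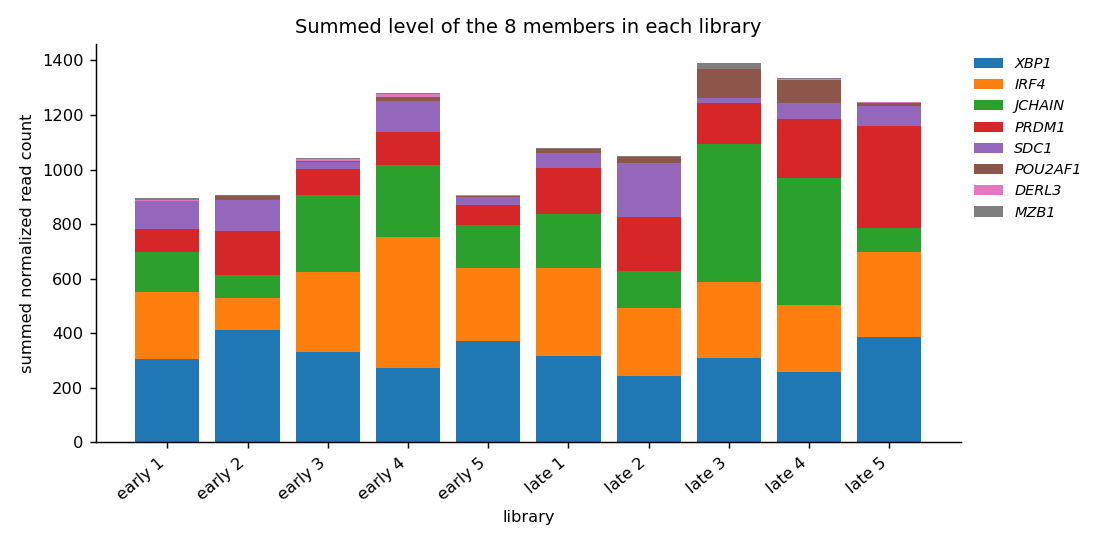
Summed normalized read count of the 8 members (vertical axis from 0) in each of the 10 libraries, divided by gene. The sums lie between 895 and 1391, with XBP1, IRF4 and JCHAIN taking most of each bar and POU2AF1 visible mainly in late libraries 3 and 4.

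The ratio of a pair of genes within a library is nearly free of the scaling between libraries. The pairs given here were chosen after their values were seen, and no test was made. On the log2(value + 1) scale, PRDM1 minus XBP1 was -1.88, -1.35, -1.80, -1.18 and -2.29 in early and -0.90, -0.29, -1.01, -0.24 and -0.05 in late libraries. Each of the 5 late libraries lay above every early library, and the means were -1.70 ± 0.44 and -0.50 ± 0.43 (SD, n = 5 each). POU2AF1 minus JCHAIN had means of -4.91 ± 1.76 in early and -2.81 ± 0.62 in late CCH (SD, n = 5 each), and 1 of 5 late libraries lay above every early library, because early library 2 reached -2.43. The -7.21 of early library 1 rests on a POU2AF1 value of 0 and thus on the pseudocount of 1. Without that library the difference between the stage means was 1.52 instead of 2.09.

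**Figure D4:**
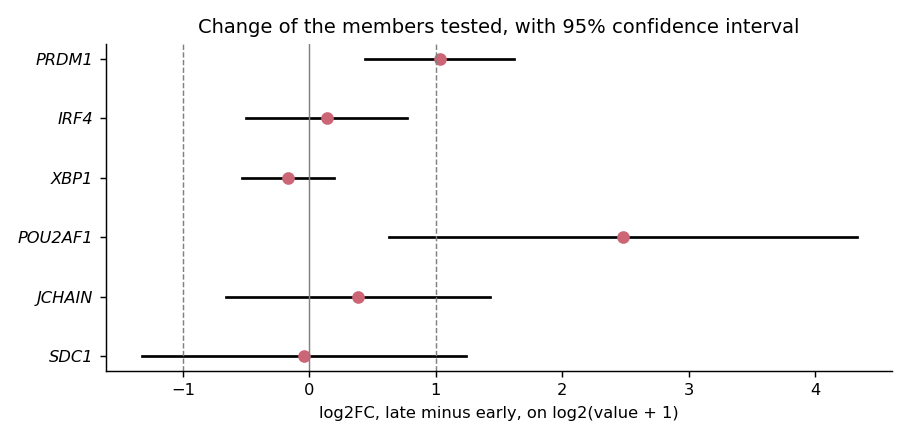
Log2FC, late minus early on log2(value + 1), of the 6 members tested (points) with 95% confidence intervals from limma (lines), with dashed lines at the size of 1 needed for a call. The intervals of PRDM1 (0.44 to 1.62) and POU2AF1 (0.63 to 4.33) lie above 0 without adjustment for multiple testing, and that of XBP1 is the narrowest.

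Other genes known from plasma cells were examined as a list of 24 symbols, of which 21 were in the table and 13 were tested. TENT5C and FAM46C name the same gene, which was present and tested under the latter symbol only. In late CCH, 2 were called higher and 0 lower, against 1.06% and 1.11% of all genes, and the median log2FC was 0.87. PIM2, a survival kinase, rose from 61.8 ± 23.2 to 209 ± 63.6 (log2FC 1.78, SE 0.32, limma BY-adjusted p = 0.0492). SLAMF7, a surface receptor shared by plasma cells and cytotoxic lymphocytes, rose from 45.5 ± 38.0 to 274 ± 83.8 (log2FC 2.95, SE 0.54, limma BY-adjusted p = 0.0495). In both genes the 5 late values were above every early value. The stages did not overlap in 4 of the 13 genes tested, all higher in late CCH, where 5.91% of all genes were. Both calls were lost in edgeR, with a pseudocount of 0.5, without a filter and, for PIM2, with TMM scaling. They were also lost in 9 of the 10 fits that left out a library, with BY-adjusted p of up to 0.172 for PIM2 and 0.179 for SLAMF7 in the latter. CD27, a receptor of T cells, memory B cells and plasma cells, had the highest log2FC of the list at 3.00 (limma BY-adjusted p = 0.423). Without early library 1 it was 1.98, below the 2.46 of SLAMF7, and edgeR and DESeq2 gave 2.11 and 2.10. At the other end, CCR10, a homing receptor of skin T cells and of antibody-secreting cells, had -2.16 (limma BY-adjusted p = 0.540). TNFRSF17, which encodes the plasma cell survival receptor BCMA, was not tested, at 0, 0.930, 6.33, 0 and 9.66 in early and 1.99, 0, 26.1, 5.11 and 0 in late libraries, with its highest value again in late library 3. Others of the 8 genes not tested differed more in total reads. TNFRSF13B had 2 reads in early and 37 in late CCH, FCRL5 5 and 47, and EAF2, in the other direction, 51 and 16.

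Genes for protein folding and secretion in the endoplasmic reticulum, which plasma cells use heavily and every cell needs, gave 0 calls among 36 tested, against 2.17% of all genes. The median log2FC was -0.10, with 1 gene higher and 8 lower at an unadjusted limma p of at most 0.05 (15.6% and 15.3% of all genes), and in edgeR and DESeq2 the number of calls was 0 as well. SPCS1, a signal peptidase subunit named after its values were seen, had a limma BY-adjusted p of 0.0464 at a log2FC of -0.67 (SE 0.12), and only its size kept it from a call. KDELR2, a receptor that returns escaped proteins to the endoplasmic reticulum, had the lowest log2FC at -0.96 (SE 0.24, limma BY-adjusted p = 0.190). HSPA5, the chaperone BiP that binds antibody heavy chains, had the highest at 0.35 (SE 0.19, limma BH-adjusted p = 0.225), with means of 908 ± 219 in early and 1152 ± 225 in late CCH. Stages did not overlap in 5 of the 36 genes, all lower in late CCH, where 6.05% of all genes were. The summed level of the list was 21569 to 28731 in early and 22317 to 24131 in late libraries.

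Genes of the unfolded protein response and of protein disposal also gave 0 calls, among 19 tested, against 2.17% of all genes, and 0 in edgeR and DESeq2. Their median log2FC was 0.13, and at an unadjusted limma p of at most 0.05, 3 were higher and 2 lower, beside 15.6% and 15.3% of all genes. The range ran from UBE2J1, a ubiquitin-conjugating enzyme of the endoplasmic reticulum, at -0.70 (SE 0.16, limma BY-adjusted p = 0.131) to SEL1L, the adaptor of the disposal complex, at 0.52 (SE 0.17, limma BY-adjusted p = 0.578).

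B-cell identity genes, some of which PRDM1 silences when plasma cells form, were tested in 17 of the 19 present in the table. In late CCH, 1 was called higher and 0 lower, against 1.06% and 1.11% of all genes. At an unadjusted limma p of at most 0.05, 11 were higher and 1 lower, against 15.6% and 15.3% of all genes, and the median log2FC was 1.37. EBF1, an early B-cell factor that stromal and fat cells also express, rose from 91.4 ± 28.4 to 231 ± 42.8 (log2FC 1.37, SE 0.23, limma BY-adjusted p = 0.0391). That call held under each of the 10 alternatives that kept all libraries but in only 1 of the 10 fits that left out a library, with a BY-adjusted p of up to 0.113. CD79B, a signaling chain of the B-cell receptor, had the highest log2FC at 4.67 (SE 0.88, limma BY-adjusted p = 0.0562), from 3.68 ± 4.75 to 125 ± 173, and the late mean included 434 in late library 3, without which the log2FC was 4.03. The lowest log2FC was that of BANK1, an adaptor of B-cell receptor signaling, at -0.87 (limma BH-adjusted p = 0.257), which became -1.31 without late library 3 and -0.52 without late library 1.

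Genes of the niche that attracts and sustains plasma cells, and cytokines that drive B cells toward them, were tested in 15 of 22. In late CCH, 1 was called higher and 0 lower, against 1.06% and 1.11% of all genes. At an unadjusted limma p of at most 0.05, 5 were higher and 1 lower, against 15.6% and 15.3% of all genes. The median log2FC of the list was 0.97. IL21, the cytokine of helper T cells that induces PRDM1 in B cells, was the gene called. It was measured at 0, 7.44, 11.8, 3.94 and 3.22 in early and 25.9, 46.6, 102, 129 and 214 in late libraries. All late values were above every early value, and the log2FC was 4.13 (SE 0.72, limma BY-adjusted p = 0.0426). The stages did not overlap in 2 of the 15 genes tested, both higher in late CCH, where 5.91% of all genes were. The call was lost with a pseudocount of 0.5 (limma BY-adjusted p = 0.0599) and in all but 2 of the 10 fits that left out a library, where the BY-adjusted p reached 0.154. IL10, a B-cell growth and differentiation cytokine, had the lowest log2FC of the list at -0.92 (limma BH-adjusted p = 0.243), which became -0.56 without late library 3.

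**Figure D5:**
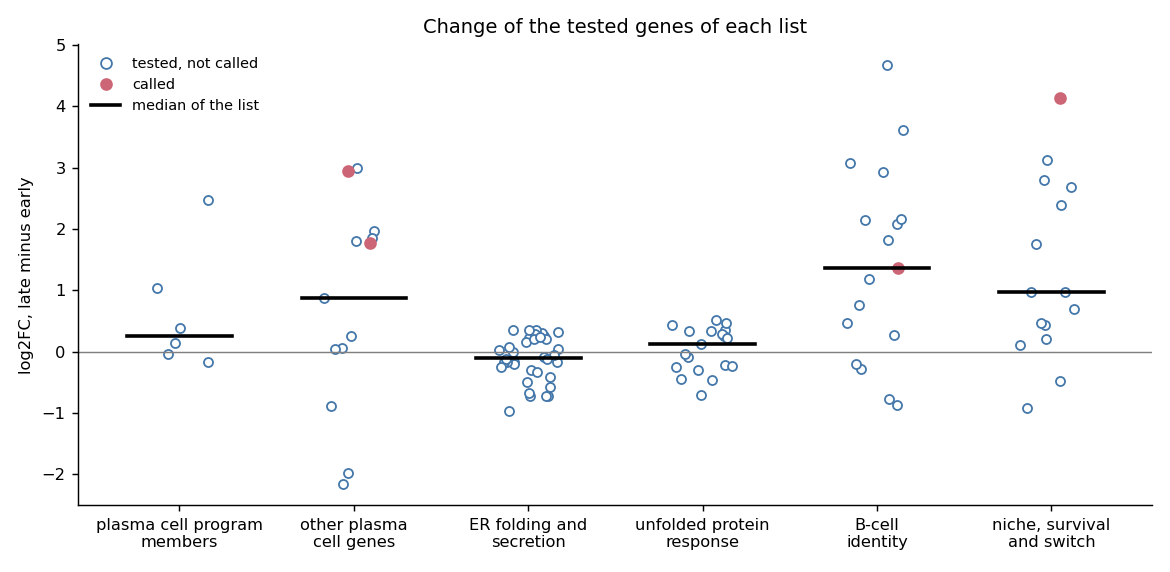
Log2FC, late minus early, of each tested gene (points, filled where called in limma) in the 6 gene lists, with the median of each list as a bar. The members have a median of 0.26, endoplasmic reticulum (ER) genes stay within 1 of 0 with a median of -0.10, and B-cell identity genes reach a median of 1.37.

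The genes whose profile over the 10 libraries was most like that of a member were found by the root mean square (RMS) distance between log2(value + 1) profiles, each centered on its own mean. For POU2AF1, whose own RMS spread was 1.86, the nearest genes were CR1L (0.79), MS4A1 (0.85) and CXCR5 (0.87), the latter being the chemokine receptor that guides B cells into follicles. For JCHAIN, with a spread of 0.85, they were TGIF2 (0.35), NOXA1 (0.40) and ZNF283 (0.41). SDC1, with a spread of 1.00, lay nearest to LMO7 (0.43), ELOVL7 (0.44) and MAPK13 (0.47). PRDM1, with a spread of 0.67, lay nearest to KIF7 (0.23), TMEM150C (0.23) and PLEKHA4 (0.29). XBP1, which varied least with a spread of 0.24, had CAND1 (0.09) and TMEM9B (0.10) among its nearest genes, and IRF4, with a spread of 0.49, had N4BP2L2 (0.20), FRS2 (0.21) and MFSD8 (0.23). No member was among the 3 nearest genes of another member.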

How the data were processed

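The deposited table holds a normalized signal per gene and library, which the authors made by dividing read counts by 1 size factor per library. By the study's methods, reads were trimmed with Cutadapt, aligned with STAR to CanFam3.1, and counted with featureCounts in a pair of rounds, the latter on genes extended downstream, with reads of several mapping places shared among them. Tool versions are not given in the sources used here. Of 21 value columns, 11 could be tied to none of the samples and were left out of every step. By the labels alone, column names give the stage of a library but not the dog, and the study's sample list, which links them to dogs, was not used here.

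Every value above 0 in the columns used (100% of 166096) was a whole multiple of 1 read within 0.01 reads, and these recovered reads, treated as counts, entered the count tests. Main values come from limma 3.58.1 (R 4.3.3) on log2(value + 1), with a trend of the variance on the mean, a scale that understates changes of low genes, for genes at 10 or more in at least 5 libraries. P-values were adjusted over all genes by BY, as in the study, and the test was run without covariates on 5 early and 5 late libraries. P-values set the difference between stages against the spread between libraries, each from a different tumor, and cannot separate stage from batch. Alternatives were BH adjustment, edgeR 4.0.16 (177 calls), DESeq2 1.42.0 (810 calls), TMM and column total scaling, pseudocounts of 0.5 and 5, other filters, library weights and leaving out each library. The fits were tested on simulated data with 200 changed genes. The members and the gene lists were chosen with earlier results of these data known. All 8 members are named, and from every other list the called genes and the genes with the highest and lowest log2FC. For each member tested, the 3 genes of nearest profile are named, leaving out symbols that start with LOC, and 1 of these genes is not reported here. Other marker or list genes given with values (MS4A1, TNFRSF17, TNFRSF13B, FCRL5, EAF2, SPCS1) were chosen after their values were seen. Gene neighbors come from the RefSeq table of UU_Cfam_GSD_1.0, where 8 of 8 members were found, and no coordinates were used, since the builds differ.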

Additional observations from a re-analysis of the deposited data

Results flagged for a closer look

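Of the 44 groups of 5 libraries examined for a single library far from the others, 4 exceeded the Dixon critical value of 0.71, where chance gives about 2.2. For MZB1 in late CCH the ratio of gap to range was 0.842, with late library 3 at 20.3 and the next at 4.09. For the summed B-cell markers in late CCH it was 0.788, with late library 3 at 3400 and the next at 1216. In early CCH, the summed B-cell identity genes gave 0.809, with library 5 at 4667 and the next at 2302, and FCER2 alone stood at 2566 in that library. The summed niche and cytokine genes gave 0.878 in early CCH, with library 2 at 4163 and the next at 1856, and CXCL13 alone stood at 1586 in that library. FCER2 and CXCL13 were named after their values were seen.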

How the results depend on the processing

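The number of members called was 0 in every setting run except BH adjustment, where it was 1 (PRDM1). The 269 calls among all genes became 1121 with BH adjustment (685 higher, 436 lower), 177 in edgeR (81 higher), 810 in DESeq2 (480 higher, 330 lower) and 418 with library weights (217 higher). Leaving out a library gave 49 (without early library 5) to 260 calls (without early library 2), with 18 to 144 higher and 29 to 153 lower. Column total scaling moved the median of all genes to 0.08 and the share of calls that were higher from 48.7% to 64.0%, and this share was 61.1% with BH adjustment and 59.3% in DESeq2. The 4 calls in the other gene lists (PIM2, SLAMF7, EBF1 and IL21) became 15 with BH adjustment, 12 in DESeq2, 2 in edgeR, 1 with a pseudocount of 0.5, 2 without a filter, and 0 to 5 when a library was left out. The cause of these shifts was not tested. The log2FC of SDC1 turned sign to 0.072 in edgeR, 0.059 in DESeq2, 0.046 with column total scaling and 0.32 with library weights, and ranged from -0.46 to 0.37 when a library was left out. That of IRF4 ranged from -0.15 to 0.37 when a library was left out. The other members tested kept their sign in every setting. At this depth, MZB1 and DERL3 rest on too few reads for a comparison. No paired analysis was possible because no replicate number is part of a column name and the stages come from different dogs.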
